A study of Mus musculus with 5 samples.

Results

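The genes described here lie within 5 Mb of ECAT11 on mouse chromosome 4. They were chosen by position only: every array probe, control spots left out, whose midpoint lies between 93130000 and 103130000 of chromosome 4 in the mm7 assembly was a member, whatever its signal. This gave 132 probes of 84 genes, out of 41174 probes of 27666 genes on the array. Of these, 83 probes of 52 genes were Present on at least 1 array and were kept for comparisons, 58 probes were well above background on all 5 arrays, and 49 were well above background on none. No probe names ECAT11, which RefSeq lists as L1td1. The gene falls in a gap of 36272 bases without probes, at chr4:98111780-98148053, between the nearest probes of Patj and Kank4. Distances below are measured from the edge of that gap.

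Total RNA from 5 mouse embryonic stem cell (ESC) lines was hybridized to one-colour Agilent arrays, with 1 array per line. The wild-type lines were RF8, which is labelled male and of 129sv origin, and #620-2, which is labelled female and of C57BL6/129sv origin. The knock-in lines, ECAT11EGFP/EGFP, were #620-6 (labelled female), #757-1 and #757-2 (both labelled male), all of C57BL6/129sv origin. All lines were grown with LIF on gelatin-coated dishes. In the knock-in allele an EGFP-IRES-Puro cassette stands in place of the ECAT11 coding region, and the allele goes back to 1 targeted clone. That clone was made from RF8 cells. As the study describes, its mice were bred among themselves and with C57BL/6, and #620-2 and the knock-in lines came from blastocysts of heterozygous parents and were derived on SNL feeder cells, a fibroblast line.

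ECAT11 encodes a protein related to the RNA-binding ORF1 protein of the L1 retrotransposon and is known for its expression in pluripotent cells. A targeted allele is inherited together with the chromosome around it, so that the neighbouring genes of a knock-in line tend to come from the cells in which the gene was targeted. Genes next to a targeted locus can therefore differ between lines by their strain of origin as well as by the allele. The arrays hold no genotypes, and which strain's copy of these genes each line carries was not tested.

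Values are log2 signals relative to the 75th percentile of the array, so that 0 is the level of the 75th percentile. They are given in the order RF8, #620-2, #620-6, #757-1 and #757-2. The level of 1 probe cannot be set against that of another probe, and fewer cells with a transcript and less RNA per cell cannot be told apart. With 1 array per line there is no error within a line, and differences between single lines carry no p. RF8, #620-2 and #620-6 were on 1 slide and #757-1 and #757-2 on another. Between 26362 and 27134 probes of the whole array were well above background on the first slide, and 22044 and 21242 on the second. All 11 probes of 8 ESC marker genes were well above background in every line, but their levels were not alike. Zfp42 was low in the knock-in lines #620-6 and #757-2 with both probes. It read 7.003, 6.799, 4.01, 6.56 and 3.87 with one probe and 6.26, 5.97, 1.32, 5.804 and 1.35 with the other. Nanog ran from 2.54 in RF8 to 4.54 in #620-6, and Sox2 only from 4.14 in RF8 to 4.67 in #757-1. Of 11 kept probes of 8 fibroblast markers, 8 were well above background in every line, and their summed signal (log2) was 4.08, 5.87, 5.94, 1.496 and 2.39, highest in #620-2 and #620-6. This order was set by S100a4, which read -0.06, 5.61, 5.70, -1.66 and -1.40. The other fibroblast markers were divided. Dcn, at -3.30, -0.53, -0.27, -2.89 and -2.37, and the collagen gene Col3a1, at -2.88, -1.10, -1.13, -4.33 and -3.92, were also highest in #620-2 and #620-6. So was Thy1, at 0.52, 1.72, 1.70, -0.49 and 0.07 with its brighter probe. The collagen genes Col1a1, at 2.98, 0.80, 0.56, 0.003 and 1.15 with its brightest probe, and Col1a2, at 2.52, 1.63, 1.54, -1.38 and -0.04, were highest in RF8. Postn was also highest in RF8. Lum was highest in #620-2 and well above background on 2 arrays only. The part of these markers in the results below was not tested.

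At several of these genes 1 line stood apart from the other 4, at 4 probes the wild-type line #620-2 and at 3 the wild-type line RF8. The clearest gaps of #620-2 were at Pgm1, where it was the highest line, and at the neighbouring Efcab7, where it was the lowest, 1.22 and 1.14 Mb from the gap on the Kank4 side. A line was counted as standing apart where its signal lay more than 1 on the log2 scale (2-fold) from the nearest other line and farther than the range of the other 4. For #620-2 this held for 4 of 83 kept probes (4.82%), against 0.915% of all 28972 kept probes. It was higher in 3 of these (0.683% of all kept probes) and lower in 1 (0.231%). For RF8 the count was 3 of 83, against 1.35% of all kept probes. It was 2 for #757-1 (0.998% of all kept probes), 0 for #757-2 (0.656%) and 0 for #620-6 (1.6%). No test goes with these shares, since there is 1 array per line and several probes belong to 1 gene. Without #620-6 the count of #620-2 was 12 of 83 (4.31% of all probes). Without #757-2, that of RF8 was 5 (2.08%) and that of #620-2 stayed at 4, and without #620-2, that of #620-6 was 4 (5.47%). The lead of #620-2 over RF8 was therefore small: it was lost with quantile normalization (3 each) and with dim signals raised to the lowest one well above background (2 each).

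**Figure D1:**
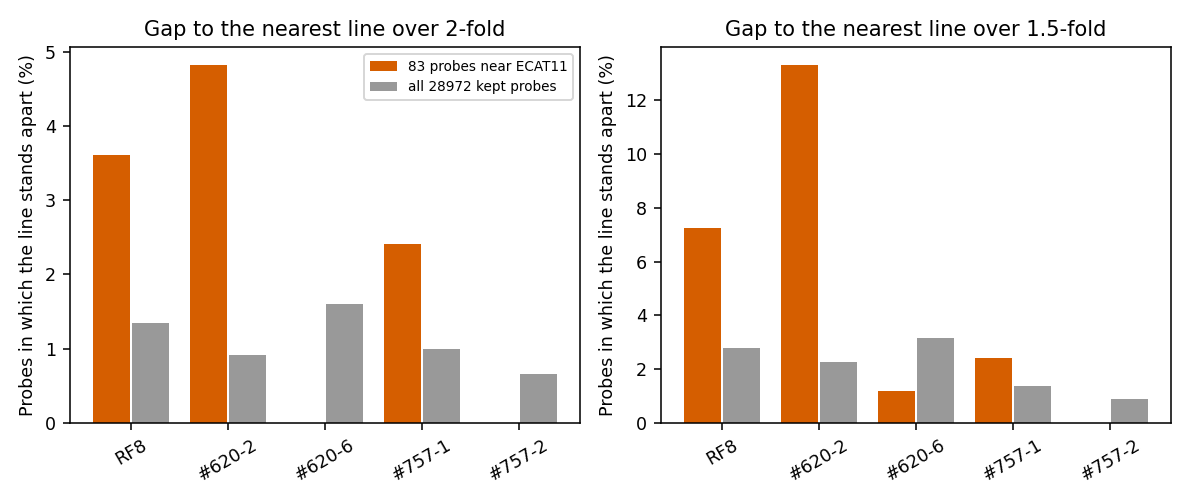
Share of probes (%) in which 1 line stood apart from the other 4, for the 83 kept probes near ECAT11 and for all 28972 kept probes, with a gap of over 2-fold (left) or over 1.5-fold (right). #620-2 had the highest share near ECAT11 in both panels, 4.82% and 13.3%, and #757-2 had no such probe near ECAT11.

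The sequences below belong to Efcab7 and Pgm1, the well measured genes with the widest gap in #620-2, and to Itgb3bp, which starts beside Efcab7. The first is the Efcab7 probe itself, since its signal rests on these bases. It lies at chr4:99287430-99288993 (mm7, plus strand), and its 60 bases span 1564 genomic bases, so that it crosses at least 1 intron. The other sequences are the 300 bases around the RefSeq starts (GRCm38.p6) of Itgb3bp, chr4:99829109-99829408 on the minus strand, and of Pgm1, chr4:99929201-99929500 on the plus strand. Capitals mark CG dinucleotides. In that assembly Itgb3bp and Efcab7 lie beside each other, with 229 bases between them.
Efcab7 probe: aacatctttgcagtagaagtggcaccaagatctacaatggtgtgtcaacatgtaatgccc
Itgb3bp promoter: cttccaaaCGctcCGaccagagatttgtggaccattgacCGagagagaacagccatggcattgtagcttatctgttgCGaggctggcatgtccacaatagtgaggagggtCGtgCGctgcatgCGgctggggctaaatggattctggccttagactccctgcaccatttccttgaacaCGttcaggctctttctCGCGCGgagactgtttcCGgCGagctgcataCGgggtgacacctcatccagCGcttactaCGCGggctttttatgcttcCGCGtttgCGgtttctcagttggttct
Pgm1 promoter: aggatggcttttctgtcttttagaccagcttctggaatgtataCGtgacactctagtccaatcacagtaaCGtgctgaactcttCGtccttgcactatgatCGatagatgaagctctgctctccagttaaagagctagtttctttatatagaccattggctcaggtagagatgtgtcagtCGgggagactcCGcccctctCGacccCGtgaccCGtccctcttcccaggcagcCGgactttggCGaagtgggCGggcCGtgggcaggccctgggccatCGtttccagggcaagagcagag
The Itgb3bp window holds 20 CG dinucleotides and the Pgm1 window 14, and the median over 32851 such windows is 7. As many as 20 are found in 26.5% of these windows and as many as 14 in 36.3%.

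Pgm1 encodes phosphoglucomutase, which interconverts glucose 1-phosphate and glucose 6-phosphate. Its probe, at chr4:99363586-99363645, read 1.76, 3.34, 1.81, 1.42 and 1.71. #620-2 was the highest line and the other 4 lay within 0.39 of each other. The gap to the nearest line was 1.53 on the log2 scale, or 2.89-fold, and #620-2 was 3.05-fold above the median of the other lines. The files name this probe Pgm2, and its accession belongs to Pgm1 in RefSeq.

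Efcab7 encodes an EF-hand protein that anchors a regulator of Hedgehog signalling at the base of the cilium. It read 0.55, -1.69, -0.17, 0.25 and 0.16, so that #620-2 was lowest. The gap to the nearest line, #620-6, was 1.53 on the log2 scale (2.88-fold), and #620-2 was 3.73-fold below the median of the others. Pgm1 and Efcab7 were well above background in every line, and both stood apart under the other background correction, under quantile normalization and in the deposited log2 table. They are neighbours, 1.14 and 1.22 Mb from the gap, and #620-2 differed in opposite directions at them.

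Itgb3bp, next to Efcab7, encodes a centromere protein. The probe at chr4:99160171-99162147 read 1.03, -0.08, 0.87, 1.15 and 1.09, with #620-2 lowest and 1.93-fold below the nearest line. A second probe read -3.88, -5.68, -4.83, -4.09 and -4.14, again with #620-2 lowest. The third probe differed from both: it read -4.83, -4.59, -5.90, -5.23 and -5.48, with #620-2 highest, and it was well above background on 3 arrays only. The probes of this gene therefore disagreed.

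Atg4c encodes a protease that processes ATG8 proteins in autophagy. Its probe at chr4:98652281-98652340 read -2.24, -0.89, -2.75, -1.86 and -2.32, with #620-2 the highest and 1.96-fold above the next line. Both other Atg4c probes were well above background on 2 arrays each. Foxd3, a transcription factor needed to maintain ESCs, and Alg6, a glucosyltransferase of N-glycan synthesis, lie between Atg4c and Itgb3bp, and #620-2 did not stand apart at either. Foxd3 read 0.89, 0.86, 0.91, 0.10 and 0.14, with both #757 lines low. Those are the lines of the second slide, so that line and slide cannot be told apart there. Alg6 read -1.15, -0.83, -0.77, -0.86 and -0.87, and its 5 lines differed little.

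With a gap of 1.5-fold in place of 2-fold, #620-2 stood apart at 11 of 83 probes (13.3%), against 2.27% of all kept probes. RF8 stood apart at 6 (2.78% of all kept probes), #757-1 at 2 (1.36%), #620-6 at 1 (3.15%) and #757-2 at 0 (0.877%). The 11 probes of #620-2 were the 4 counted above and 2 of Tek and 1 each of Atg4c, Itgb3bp, Cachd1, Pde4b and AK079803. #620-2 was higher at 6 of them and lower at 5. Cachd1, which encodes a membrane protein with cache domains, read -0.49, 0.24, -1.20, -0.50 and -0.999 with its first probe, with #620-2 highest. Its other probe read -0.67, -1.11, -1.602, -0.73 and -1.18, and #620-2 lay among the other lines there. Tek, the receptor of the angiopoietins, lies on the Patj side, and its probes read -3.61, -4.62, -3.63, -3.14 and -3.24, and -1.16, -1.995, -1.25, -0.69 and -0.71. Both probes were lowest in #620-2, by 1.98-fold and 1.68-fold to the nearest line.

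**Figure D2:**
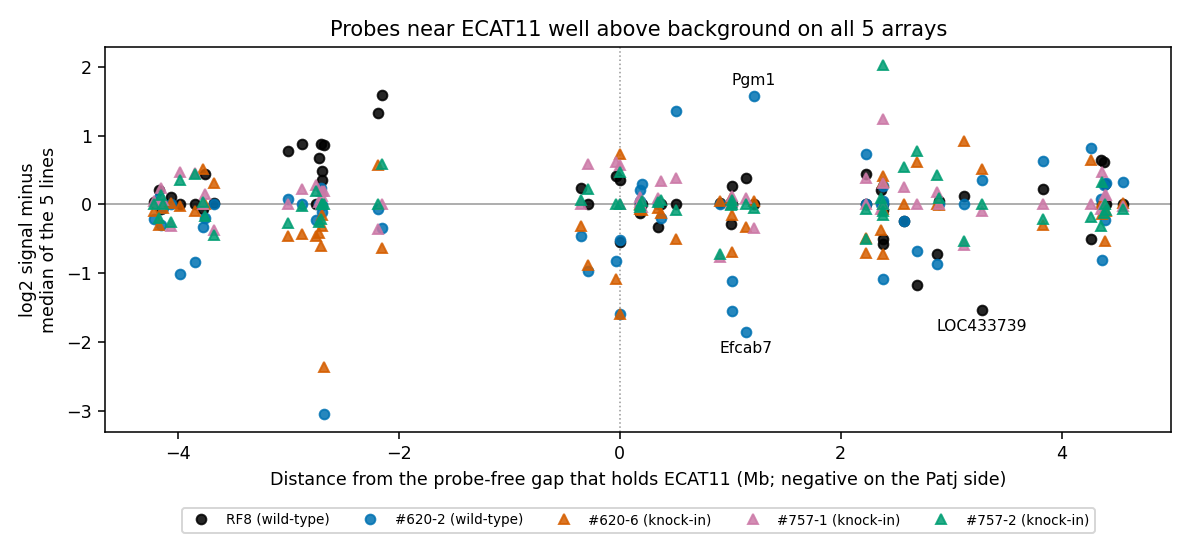
Log2 signal of each line minus the median of the 5 lines (vertical axis), against distance from the gap that holds ECAT11 (Mb), for the 58 probes that were well above background in every line (circles wild-type, triangles knock-in lines). On the Kank4 side #620-2 (blue) has its widest gaps to the other lines at Pgm1 and Efcab7, and RF8 (black) lies above the other lines at many probes 2 to 3 Mb away on the Patj side.

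By distance, #620-2 stood apart by over 2-fold at 1 of 20 kept probes within 1 Mb of the gap, at 2 of 8 from 1 to 2 Mb, at 1 of 27 from 2 to 3 Mb, and at none of the 28 beyond. RF8 stood apart at 2 of 27 probes from 2 to 3 Mb and at 1 of 10 from 3 to 4 Mb. The bin from 1 to 2 Mb holds few probes, so that 2 genes set its share. With a gap of 1.5-fold, #620-2 also stood apart beyond 3 Mb. These probes were those of Tek (3.98 and 3.84 Mb), 1 of Pde4b (3.83 Mb) and AK079803 (4.36 Mb). Among the 58 probes well above background in every line, #620-2 was the line farthest from the median of the 5 at 23 (39.7%), against 27.8% of all 20617 such probes. RF8 was farthest at 17 (29.3%, against 22.3%) and #620-6 at 10 (17.2%, against 27.4%). #757-1 and #757-2 were each farthest at 4 probes (6.90%), against 13.8% and 8.74% of all such probes.

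The remaining probes in which #620-2 stood apart were dim. A probe of Nfia, a nuclear factor I transcription factor, at chr4:97510678-97510737, read -5.995, -4.87, -5.90, -6.38 and -6.47, and was well above background in #620-2 and #620-6 only. The other kept Nfia probes were also well above background in 2 lines each, and read -6.12, -4.34, -5.14, -6.62 and -6.26, and -7.41, -3.76, -4.28, -6.56 and -6.28. A further Nfia probe was well above background in no line. In all 3 kept probes #620-2 was highest and #620-6 next. AK053038 was well above background in #620-2 only, at -4.82. No fold is given for these, because the lowest signal well above background was -4.49 and -4.22 on the arrays of #757-1 and #757-2.

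RF8, the 129sv line, stood apart at Cyp2j13, AV373767 and LOC433739. LOC433739, at chr4:101422947-101423006, read -2.31, -0.41, -0.26, -0.87 and -0.77 and was well above background in every line. RF8 was the lowest, 2.73-fold below the nearest line. AV373767 was well above background in RF8 only, at -4.42.

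The Cyp2j genes, cytochrome P450 enzymes that act on arachidonic acid, form a cluster on the Patj side, 2.15 to 2.67 Mb from the gap for the kept probes. Both Cyp2j5 probes, at 2.09 Mb, and a second Cyp2j11 probe were not kept. Of 6 kept probes of 4 genes, 3 were well above background in every line. Cyp2j9 read -0.99, -2.92, -3.21, -2.57 and -1.98, and Cyp2j6 read -1.54, -2.94, -2.29, -3.22 and -2.87. RF8 was the highest line at both. Cyp2j13 had the widest range of these genes, with -0.45, -4.36, -3.68, -1.12 and -1.31. It was high in RF8 and the #757 lines and low in #620-2 and #620-6, so that the genotypes overlapped. In a second Cyp2j13 probe RF8, at -3.19, was at least 2.04-fold above every other line. Members of this family are alike in sequence, so that a probe's signal may not belong to its named gene alone.

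Hook1, a linker of vesicles to microtubules, and Fggy, a carbohydrate kinase, lie beside the Cyp2j cluster. RF8 was highest at all 4 Hook1 probes and at both Fggy probes. The Fggy probes read -2.17, -2.87, -3.41, -2.95 and -3.21, and -0.31, -1.19, -1.62, -0.97 and -1.22. RF8 was 1.63-fold and 1.58-fold above the next line at these. #620-6 was the lowest line at all 6 probes of these 2 genes.

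#757-1 stood apart at 2 dim probes. A Raver2 probe read -6.02, -5.59, -5.66, -3.34 and -5.82, with #757-1 at least 1.84-fold above every other line. The other 3 kept probes of Raver2, a partner of the splicing repressor PTB, had no such line. AK087421, listed without a symbol, read -5.24, -4.91, -5.66, -2.94 and -6.49, at least 2.44-fold higher in #757-1. The #757 lines stood apart from the 3 other lines together at 1 probe (1.2%, against 0.435% of all kept probes). These lines make up the second slide, so that line and slide cannot be told apart. The probe was AK029232, at -5.81, -5.24, -5.30, -3.996 and -3.21.

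The nearest genes to ECAT11 were Patj and Kank4. Patj encodes a scaffold protein of the Crumbs polarity complex. Its closest probe read -1.85, -3.80, -3.80, -1.63 and -2.21, the next read -1.75, -2.98, -3.25, -1.55 and -2.17, and the third read -3.49, -4.47, -4.37, -2.91 and -3.26. All 3 probes were low in #620-2 and #620-6, which are a wild-type and a knock-in line and both labelled female. The genotypes overlapped at each of them, and the Patj log2 fold change was 0.28 ± 0.90, 0.05 ± 0.65 and 0.46 ± 0.56 (SE), knock-in minus wild-type.

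Kank4 encodes an ankyrin-repeat protein that binds the cytoskeleton. One probe read -3.66, -3.63, -2.39, -3.12 and -2.64, and was well above background in every line. All 3 knock-in lines were above both wild-type lines, by 0.93 ± 0.26 (SE) on the log2 scale in the means. The second probe read -6.79, -5.17, -3.89, -3.75 and -4.43, in the same order of groups, but was well above background on 3 arrays. The adjusted p from limma was 0.527 for the first and 0.526 for the second, so neither passed. #620-6 alone, against the wild-type lines on its own slide, gave 1.26 and 2.09. The 2.09 rests in part on RF8 at -6.79, below the lowest signal well above background on its array (-5.99). With normexp background correction the log2 fold change of the second probe went from 1.96 to 0.58, and that of the first from 0.93 to 0.59.

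Several well measured genes varied little between lines. Usp1, a deubiquitinase of DNA repair, ran from 3.89 to 4.05 over the 5 lines. Leprot, an endosomal protein encoded beside the leptin receptor, ran from 2.81 to 2.91. On the Patj side, Plaa, a ubiquitin-binding protein, ran from 1.81 to 1.93 with one probe. Its other probe varied more, at 0.15, -0.08, 0.22, 0.46 and 0.36, and had log2 fold change 0.31 ± 0.17 (SE), adjusted p 0.784 from limma. Tm2d1, a membrane protein next to Patj, also varied more, at 2.41, 1.71, 1.85, 2.16 and 2.23, with #620-2 and #620-6 lower than the rest.

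**Figure D3:**
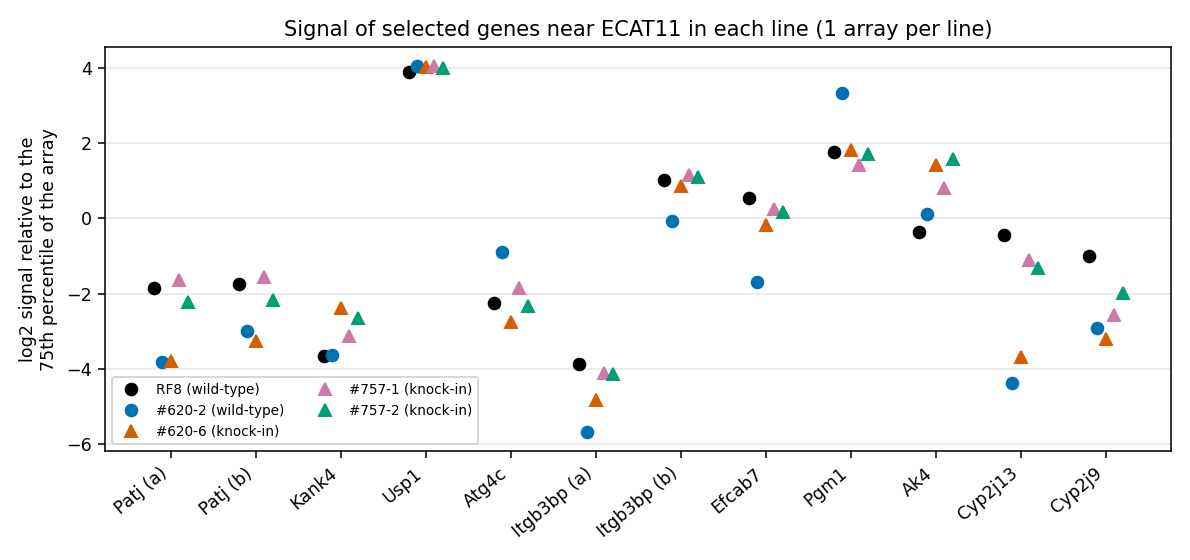
Log2 signal relative to the 75th percentile of the array (vertical axis) of 12 probes near ECAT11 with 1 point per line (circles wild-type, triangles knock-in). Letters mark different probes of a gene. #620-2 is the outermost line at Atg4c, Itgb3bp, Efcab7 and Pgm1, #620-2 and #620-6 are low together at Patj and Cyp2j13, and Usp1 runs only from 3.89 to 4.05.

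The comparison the study was designed for is that of genotypes, 2 wild-type against 3 knock-in lines. No probe near ECAT11 passed limma at an adjusted p under 0.05 and 2-fold, against 1 of all 28972 kept probes (0.00345%). The smallest adjusted p of a member was 0.406. At an unadjusted p under 0.05 there were 13 of 83 (15.7%), against 7.6% of all kept probes. Of these, 4 were higher in the knock-in lines (4.82%, against 4.07%) and 9 lower (10.8%, against 3.53%). The groups did not overlap at 21 of 83 probes (25.3%), against 23.6% of all kept probes. The median log2 fold change was -0.10 for the members and -0.02 for all kept probes. With the methods' t-test 9 of 83 members (10.8%, against 7.31% of all probes in that fit) had an unadjusted p under 0.05 and 0 passed after adjustment. Without RF8 the 13 became 20 (25.0%, against 7.67% of all probes in that fit), and without #757-2 they became 7 (8.43%, against 4.18%).

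Dnajc6, which encodes auxilin and uncoats clathrin vesicles, had the smallest p. It read -0.31, -0.46, 0.41, 0.58 and 0.84, with every knock-in line above both wild-type lines. The log2 fold change was 1.00 ± 0.19 (SE), with an adjusted p of 0.406 from limma. #620-6 alone, against the wild-type lines on its own slide, gave 0.80. Ak4, a mitochondrial adenylate kinase next to Dnajc6, read -0.37, 0.13, 1.43, 0.80 and 1.58. Its log2 fold change was 1.39 ± 0.32 (SE), with an adjusted p of 0.467 from limma. For Ak4, #620-6 alone against the same wild-type lines gave 1.55. These genes lie 2.87 and 2.69 Mb from the gap, and both were measured well above background in every line by 1 probe each.

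Of the 9 probes lower in the knock-in lines, 6 were well above background on fewer than 5 arrays, among them single probes of AV373767, Atg4c, Itgb3bp, Pde4b and Mier1. The remaining 3 were a Hook1 probe and the brighter Pde4b probe, together with another of Mier1. Pde4b, a cAMP phosphodiesterase, was lower with both kept probes, at -3.00, -2.60, -3.52, -3.22 and -3.44 with the brighter one. Its log2 fold changes were -0.60 ± 0.20 and -0.85 ± 0.24 (SE), with adjusted p of 0.606 and 0.543 from limma. Mier1, a transcriptional corepressor, had 4 kept probes with log2 fold changes from -0.76 to -0.16. A Hook1 probe was lower by 0.83 ± 0.30 (SE), adjusted p 0.629.

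**Figure D4:**
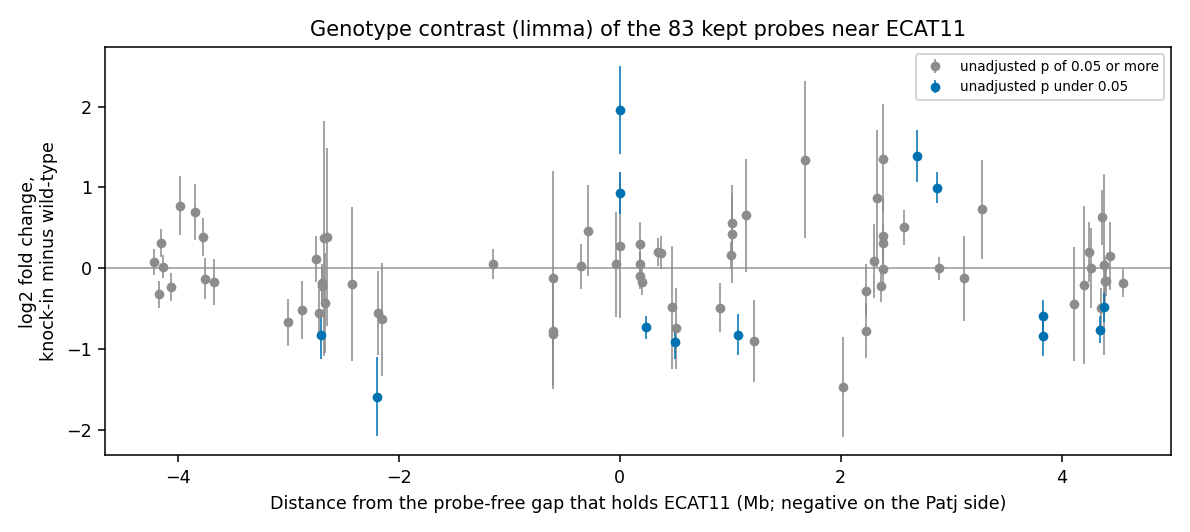
Log2 fold change, knock-in minus wild-type lines, of the 83 kept probes (vertical axis, bars are the standard error from limma) against distance from the gap that holds ECAT11 (Mb). Blue points had an unadjusted p under 0.05, 4 above 0 and 9 below, and none passed after adjustment.

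By role, 21 kept probes of 10 genes of trafficking, polarity and the cytoskeleton held 3 at an unadjusted p under 0.05 that were higher and 3 that were lower, with a median log2 fold change of -0.17. Transcription and chromatin genes (Jun, Nfia, Foxd3, Mysm1 and Mier1; 11 probes) held 0 and 2, with a median of -0.49. Receptors and signalling enzymes (Tek, Ror1, Jak1, Leprot and Pde4b; 8 probes) held 0 and 2, with a median of 0.15. Genes of metabolism and transport (7 probes of 5 genes) held 1 and 0, the 1 being Ak4. Genes of DNA repair and ubiquitin (4 probes of Usp1 and Itgb3bp) held 0 and 1, with a median of 0.24. That 1 was the Itgb3bp probe well above background on 3 arrays only, which differed from the other probes of its gene. The Cyp2j family (6 probes) held none in either direction. No list held a probe that passed after adjustment. Of all kept probes, 4.07% were higher and 3.53% lower at that p, and the median was -0.02.

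Jak1, a tyrosine kinase through which LIF signals in ESCs, lies 2.38 Mb from the gap. It read 0.74, 1.30, 1.58, 1.25 and 1.15 with one probe and 1.25, 1.602, 1.75, 1.34 and 1.18 with the other. #620-6 was highest with both, and the log2 fold change was 0.31 ± 0.25 and 0.00 ± 0.25 (SE).

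Differences between pairs of lines were wider near ECAT11 than over all probes in each of the 10 pairs. Over probes well above background in both lines, the median absolute log2 difference was smallest between #757-1 and #757-2, at 0.16 near ECAT11 and 0.15 over all probes. It was largest between RF8 and #620-6, at 0.56 and 0.34. Between #620-2 and #620-6 it was 0.37 and 0.25, and between the wild-type lines 0.47 and 0.31. #757-1 and #757-2 were also the only lines on their slide, so that line and slide cannot be told apart in this pair. Probes of 1 gene share their source, and these medians are given without a test.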

How the data were processed

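Cy3-labelled RNA of the 5 ESC lines was measured on one-colour Agilent arrays, 1 per line. For each spot the authors deposited an intensity that Feature Extraction 9.5.3.1 had corrected for background but not normalized between arrays. Their deposited table of log2 values served as an alternative. Control spots (1639 of 45018) were left out, and non-uniform or outlying spots (0.335%) were set missing. Intensities were scaled to the 75th percentile of the array (687.5 to 794.4 units), put on the log2 scale and averaged over the spots of a probe. A probe was kept if 1 array or more called it Present, that is, positive, significant and well above background without being marked or saturated. The number of arrays limits the precision.

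Genotypes were compared by limma (version 3.58.1, R 4.3.3) on all 28972 kept probes, with Benjamini-Hochberg adjustment, and called at an adjusted p under 0.05 and a fold over 2. An exact permutation test of 2 lines against 3 cannot go below a p of 0.1. Where a line was dimmer than the lowest signal well above background on its array, that signal took its place in a fold given as "at least". The fit was tested on simulated data in which 200 probes were changed. Figures were drawn with matplotlib 3.10.9.

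Of the 132 probes, 62 were named by accession and 39 by symbol or synonym through RefSeq (GRCm38.p6), and 31 kept the name in the files. Probe positions are those in the files (mm7). Exons and UTRs at the probes were not analysed here, as no annotation of that build was used. The genes named were the 5 nearest on each side of the gap, those of up to 15 probes with the largest gap, those of the 10 probes with the smallest p, and those of the role lists, of which some are not reported here. Others named (Cachd1, AK079803 and AK029232) were chosen after their values were seen. The region, the lists and the tests were chosen with earlier results of these data known. The alternatives were normexp background correction (offset 50), quantile normalization, the deposited log2 values, dim probes either all kept or held to well above background on every array, marked spots kept, slide as a block, sex label as a covariate, the methods' t-test, gaps of 1.5-fold and 4-fold, windows of 1, 2.5 and 10 Mb, and leaving out each line.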

Additional observations from a re-analysis of the deposited data

How the results depend on the processing

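No probe near ECAT11 passed limma after adjustment in any of the fits run. The count of 13 probes at an unadjusted p under 0.05 was 8 with normexp (9.64%, against 6.49% of all probes). It was 7 among probes well above background on all 5 arrays (12.1%, against 7.50%). With the sex label as a covariate it was 21 (25.3%, against 13.4% of all probes). By window it was 4 of 20 within 1 Mb (20%), 6 of 42 within 2.5 Mb (14.3%) and 15 of 173 within 10 Mb (8.67%). The share of all kept probes was 7.6%. Leaving out a line gave 7 to 20. The slide as a block gave 12 (14.5%, against 8.92%).

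Counts of probes in which 1 line stood apart moved with the treatment of dim signals. With normexp #620-2 had 2 (0.3003% of all probes), RF8 1 (0.545%), #757-1 1 (0.556%) and the #757 lines together 0. With quantile normalization #620-2 had 3 (1.19%), RF8 3 (1.57%) and #757-1 1 (1.02%). Among probes well above background on all 5 arrays #620-2 had 2 (0.495%), RF8 1 (0.834%) and #757-1 0 (0.218%). Raising dim signals to the lowest one well above background, an alternative chosen after seeing the data, left 2 for #620-2 (0.518%), 2 for RF8 (0.853%) and 0 for #757-1 (0.452%), and turned the gap to -0.65 for Nfia, -0.59 for AK053038 and -0.20 for AV373767. A gap of 1.5-fold gave 11 for #620-2 (2.27%), 6 for RF8 (2.78%) and 1 for #620-6 (3.15%). A gap of 4-fold gave 0 for #620-2 (0.269%), 0 for RF8 (0.435%) and 1 for #757-1 (0.625%). Of 20 kept probes within 1 Mb, #620-2 stood apart at 1 (5%), RF8 at 0 and #757-1 at 0. Of 42 within 2.5 Mb, #620-2 stood apart at 4 (9.52%), RF8 at 1 (2.38%) and #757-1 at 1 (2.38%). Of 173 within 10 Mb, #620-2 stood apart at 5 (2.89%), and RF8 and #757-1 at 4 each (2.31%). There #620-6 and #757-2 stood apart at 1 each (0.578%). Over all kept probes the shares were 0.915% for #620-2, 1.35% for RF8, 0.998% for #757-1, 1.6% for #620-6 and 0.656% for #757-2. Leaving out a line in turn gave 4 to 12 for #620-2, 3 to 5 for RF8, 0 to 4 for #620-6, 2 to 3 for #757-1 and 0 to 1 for #757-2. The causes were not tested. Efcab7 and Pgm1 stood apart in #620-2 under every background correction and normalization tried. Dim probes are limited most on the second slide, where fewer signals were well above background.

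No paired analysis was possible because only 1 line number of the labels, 620, occurs in both groups (#620-2 and #620-6), and the replicate numbers only follow the order of the samples.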
